A study of Drosophila melanogaster with 2 samples.

Results

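The Hedgehog pathway genes described here are 10 genes of the fly pathway, hh, disp, ihog, ptc, smo, cos, fu, Su(fu), ci and rdx, chosen by symbol for their roles in making, releasing, receiving and relaying the Hedgehog signal. They were read on 2 Affymetrix arrays of Drosophila melanogaster embryos, 1 array of embryos homozygous for a tdf mutation and 1 array of the yw stock. Of the 10 genes, 9 had a probe set (a group of short probes for 1 transcript) that names the gene alone, out of 10843 such genes on the array. The current name of tdf is apontic (apt), and its product, a transcription factor, has been reported to regulate hh. Both genotypes were kept on apple juice plates at 25 °C until 16 h after egg laying. The tdf homozygotes were recognised with a GFP-marked CyO balancer chromosome, so they came from parents that each carried the balancer. Not given in the sources used here are the allele, the width of the egg collection and how many embryos each extract pooled. The yw stock, named after the body colour gene yellow and the eye colour gene white, is not said to share its genetic background with the tdf stock, so an effect of tdf and one of background cannot be told apart.

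Hedgehog is a secreted, lipid-modified protein. Cells that make it release it through Dispatched, and receiving cells bind it with Patched together with Ihog or its relative Boi. Without ligand, Patched holds the membrane protein Smoothened inactive and the transcription factor Cubitus interruptus (Ci) is cut to a repressor. With ligand, Smoothened signals through a complex of the kinesin-like protein Costal-2, the kinase Fused and Suppressor of fused, and full-length Ci activates target genes. In the fly embryo the pathway is best known for setting the borders within each segment of the epidermis, where cells expressing engrailed make Hedgehog and their neighbours answer.

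Values are MAS5 signals on a linear scale, which both arrays share after scaling of each array as a whole. There was 1 array per genotype, so every value is a single measurement, no test was possible and no difference below has a replicate check. A signal under 97.3, the 40th percentile of gene probe sets over both arrays, was treated as below the floor, and a gene was called measured when its signal reached the floor on at least 1 array. Of all genes 7639 were measured, and their median log2 ratio (tdf over yw) was 0.03. For apt itself the signal was 1051 on the array labelled tdf and 979 on the yw array, a log2 ratio of 0.10. The mutated gene was thus no dimmer in the mutant RNA. The lesion and the position of the probe set on apt are unknown here, so apt does not check the labels, and the array is called by its label throughout. Markers of a late embryo chosen for this check, such as the muscle gene Mlc2 and the cuticle gene TwdlM, were above the floor on both arrays for all 16 that had a probe set. Of these 16, 3 were at least 2-fold higher on the array labelled tdf (TwdlD, Cpr49Af and Osi18), beside 3.6% of all measured genes. The median log2 ratio of the 16 was 0.22, with 12 ratios above 0 and 4 below. That median was -0.01 under quantile normalisation and -0.02 under loess, so the late markers had no stable direction. Maternal and early embryo markers had a median log2 ratio of -3.04 over 13 measured, with 11 ratios below 0 and 2 above. Of the 13, 8 were at least 2-fold lower on the array labelled tdf, beside 6.19% of all measured genes. Over those 13 genes the summed signal was 6379 on the array labelled tdf and 25050 on the yw array, and nullo, twe, bcd, smg, swa and plu fell short of the floor in the mutant RNA. The part of this difference in the Hedgehog pathway values was not tested. Of the 4 transcripts with 5' and 3' control probe sets, 3 had a higher ratio of 3' to 5' signal on the array labelled tdf, and that ratio ran from 14.9 to 56.6 over both arrays. Its part in the results was not tested either. In whole embryos, fewer cells of a type and less RNA per cell cannot be told apart.

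Of the 9 Hedgehog pathway genes with a probe set, 4 were measured, namely smo, Su(fu), ci and rdx, all above the floor on both arrays. The other 5, hh, disp, ihog, ptc and cos, were below the floor on both arrays, and fu was not analysed here because no probe set used here names it alone. Among all 10843 genes, 29.5% were below the floor on both arrays. Of the 4 measured genes, 1 was at least 2-fold higher on the array labelled tdf (rdx), where 3.6% of all measured genes were, and 0 were at least 2-fold lower, where 6.19% of all measured genes were. With 4 genes measured, 1 gene makes the whole count, so no share for the pathway can be read from it. At a limit of 1.5-fold, rdx was higher and Su(fu) lower, beside 13.2% of measured genes higher and 15.3% lower, and at 3-fold none of the 4 was apart, beside 0.458% higher and 1.78% lower. The median log2 ratio of the 4 was -0.12, against 0.03 over all measured genes, with 2 ratios above 0 and 2 below.

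**Figure D1:**
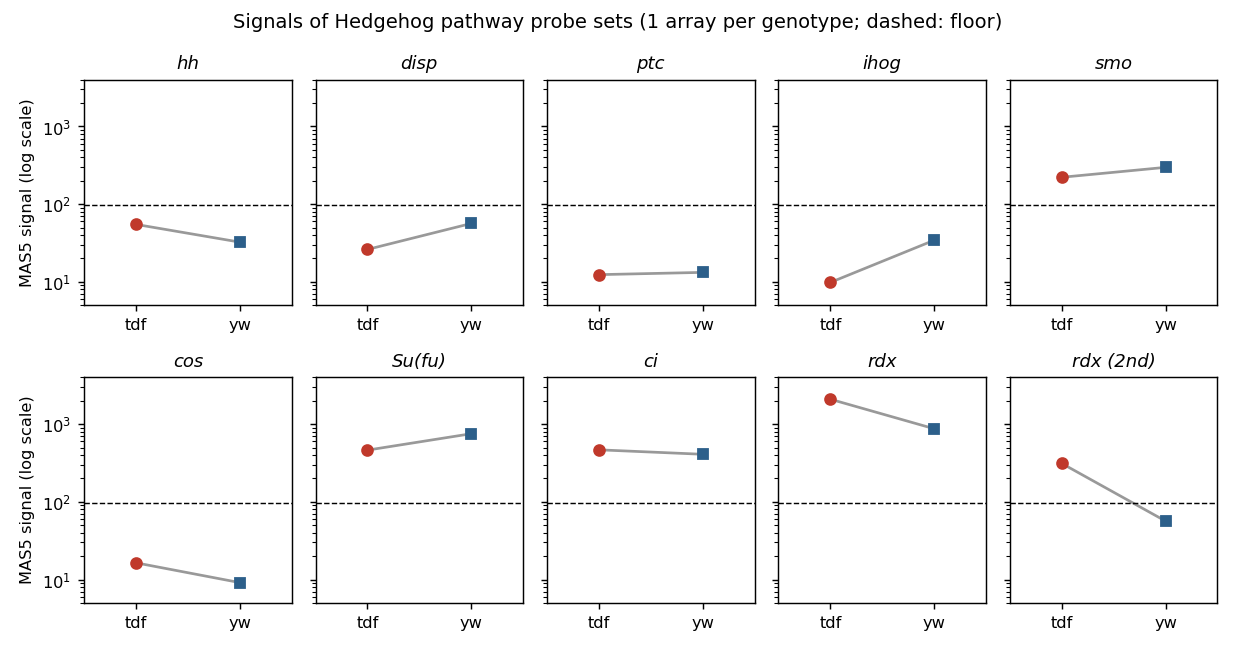
Signal (MAS5, log scale) of each of the 10 probe sets of 9 Hedgehog pathway genes on the array labelled tdf (circles) and the yw array (squares), 1 array per genotype, with a dashed line at the floor of 97.3. The probe sets of hh, disp, ptc, ihog and cos lie below the line on both arrays, and both probe sets of rdx are higher on the array labelled tdf.

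The ligand gene hh, read by probe set 143501_at, had a signal of 54.9 on the array labelled tdf and 32.5 on the yw array. Both signals are under the floor, so no fold is given, and these arrays cannot show a difference in hh in either direction. Among the 500 genes of nearest mean signal, the log2 ratio without a floor ran from -1.82 at the 10th percentile to 2.47 at the 90th, and 62.8% of them had a lower ratio than hh. The spread among probe sets this dim is therefore wider than the difference for hh. A signal below the floor does not show that a transcript was absent.

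The gene disp encodes Dispatched, a membrane protein with many spans that frees lipid-modified Hedgehog from the cells that make it. Its probe set 149358_at had 26.1 on the array labelled tdf and 56.4 on the yw array, both under the floor. Of the 500 genes of nearest mean signal, 20.4% had a lower ratio without a floor, and their 10th and 90th percentiles were -1.93 and 2.34. No direction can be given for disp.

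Of the reception genes, ptc encodes the Hedgehog receptor Patched, and it is also a target of the pathway. Its probe set 143395_at had 12.4 on the array labelled tdf and 13.2 on the yw array, both far under the floor. Patched transcript is the usual readout of Hedgehog signalling, and it gave no usable value here. The gene ihog encodes a co-receptor with immunoglobulin and fibronectin domains, and its probe set 151944_at had 9.82 on the array labelled tdf and 34.3 on the yw array, again both under the floor. Its relative boi, which can stand in for ihog, had 86.1 on the array labelled tdf and 44.0 on the yw array at its brighter probe set, and 33.7 and 29.9 at its other probe set, in the same order. None of ptc, ihog and boi was thus measured.

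The signal transducer smo, read by probe set 154678_at, was the upstream-most Hedgehog pathway gene measured. Smoothened is the seven-pass membrane protein that Patched restrains. Its signal was 222 on the array labelled tdf and 298 on the yw array, a log2 ratio of -0.42, or 1.34-fold lower. The size of this difference is less than the SD of 0.53 between log2 ratios of probe sets of the same gene, taken over 278 genes with more than 1 probe set above the floor on both arrays. That SD comes from 1 pair of arrays, so it holds no variation between biological replicates. It can also hold differences among transcripts of a gene, where its probe sets read different ones. Of all measured genes, 20.9% had a lower ratio than smo.

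Within the cytoplasmic complex, cos encodes Costal-2, a kinesin-like scaffold that binds Ci, Fused and Smoothened. Its probe set 143106_at had 16.4 on the array labelled tdf and 9.13 on the yw array, both under the floor. Suppressor of fused, which holds Ci in the cytoplasm, was measured. Su(fu), at probe set 153324_at, had 464 on the array labelled tdf and 754 on the yw array, a log2 ratio of -0.70, or 1.63-fold lower. It had the lowest ratio of the 4 measured pathway genes, larger in size than the SD of 0.53 between probe sets of a gene but under 2-fold. Of all measured genes 11.9% had a lower ratio, and the ratio lay within the 10th to 90th percentile range of -0.92 to 0.62 of the 500 measured genes of nearest mean signal.

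The transcription factor gene ci, at probe set 143521_at, had 468 on the array labelled tdf and 410 on the yw array. The log2 ratio was 0.19, or 1.14-fold higher, the smallest difference of the 4 measured genes and well under the SD between probe sets of a gene. Full-length Ci and its repressor form come from the same transcript, so the array holds no information on how the protein was cut.

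The gene rdx, also called roadkill, encodes a BTB protein that brings Ci to a Cul3 ubiquitin ligase for degradation, and its transcription is itself known to respond to Hedgehog signalling. Its brighter probe set, 149866_at, had 2097 on the array labelled tdf and 875 on the yw array, a log2 ratio of 1.26, or 2.40-fold higher. Its other probe set, 149867_at, had 312 on the array labelled tdf and 56.6 on the yw array, where it was below the floor, so it was at least 3.21-fold higher. The probe sets of rdx, the only one of the 9 genes with more than 1, thus had the same direction, and each was past 2-fold. RefSeq lists 5 transcripts of rdx, and it is not known here which of them each probe set reads. The 2 probe sets share the same pair of RNA samples, so they are no replicates of the genotype. Of the 7639 measured genes, 117 (1.53%) had a higher ratio than the brighter probe set of rdx. Its ratio lay outside the 10th to 90th percentile range of -0.74 to 0.63 of the 500 measured genes of nearest mean signal. It was 2.77 of their scaled median absolute deviations above their median. The scaling makes that deviation, 0.45 here, comparable to an SD for normally distributed values. A limit of 3 such scaled deviations, which 2.16% of measured genes passed, therefore does not take rdx. The unscaled deviation is smaller, so by it rdx would lie further out. Like the dimmer probe set of rdx, 3 of 4 yeast controls, for which fly RNA holds no target, passed the floor in the mutant RNA but not in the yw RNA, and the part of this in that probe set's difference was not tested.

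**Figure D2:**
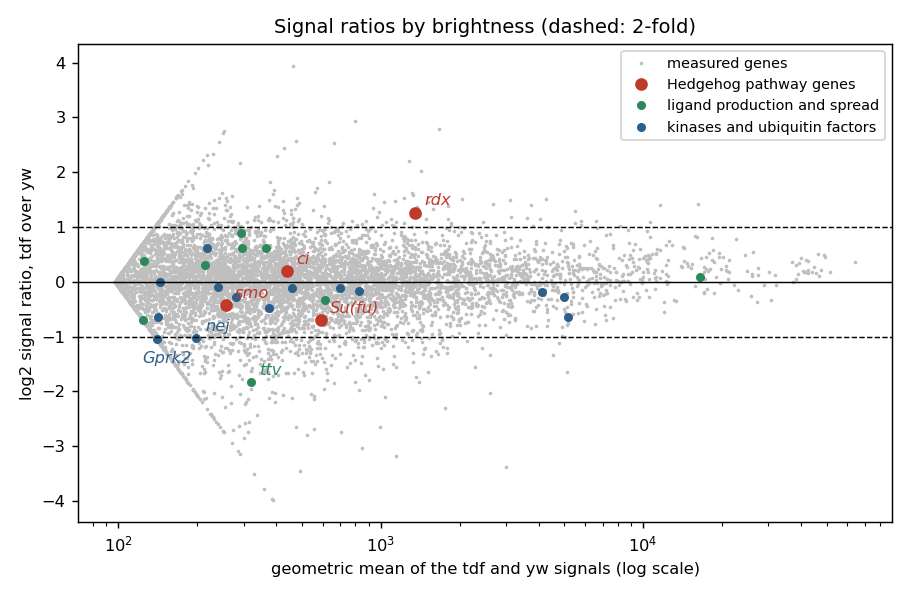
Log2 signal ratio, tdf over yw, against the geometric mean of both signals (log scale) for the 7639 measured genes (grey), with signals below the floor raised to it. Of the measured Hedgehog pathway genes (red), rdx lies above the upper dashed 2-fold line at 1.26 and ci, smo and Su(fu) lie between the lines, while ttv, nej and Gprk2 of the wider pathway lie below the lower line.

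The wider pathway was read through lists of genes that act with these members. Of 13 genes for ligand production, carriage and spread, 10 had a probe set and 9 were measured. Of the 9, 1 was at least 2-fold lower on the array labelled tdf, where 6.19% of all measured genes were, and 0 were at least 2-fold higher, where 3.6% were. The lower gene was ttv, which encodes an exostosin needed to make the heparan sulphate chains over which Hedgehog spreads. It had 170 on the array labelled tdf and 605 on the yw array, a log2 ratio of -1.83, or 3.56-fold lower, and 0.995% of measured genes had a lower ratio. A related exostosin gene, botv, had 88.6 on the array labelled tdf, below the floor, and 159 on the yw array, and was thus at least 1.63-fold lower. The third exostosin gene of the fly, sotv, was not analysed here.

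In the other direction, shf, which encodes a secreted factor that stabilises Hedgehog outside the cell, had 398 on the array labelled tdf and 215 on the yw array, 1.86-fold higher. Named after their values were seen are rasp and lin. The acyltransferase gene rasp, whose product adds palmitate to Hedgehog, had 450 on the array labelled tdf and 294 on the yw array, 1.53-fold higher. The gene lin, a transcriptional regulator of the dorsal epidermis and not a ligand factor as such, had 365 on the array labelled tdf and 238 on the yw array. None of these 3 reached 2-fold. The glypican gene dlp had 546 on the array labelled tdf and 685 on the yw array, a log2 ratio of -0.33, and its second probe set stayed under the floor on both arrays. The lipophorin gene apolpp, whose product carries Hedgehog among other lipid-linked proteins, had 16952 on the array labelled tdf and 16025 on the yw array, a log2 ratio of 0.08 whose sign turned under quantile normalisation and loess. The list had a median log2 ratio of 0.31, against 0.03 over all measured genes, with 6 ratios above 0 and 3 below.

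The kinases, phosphatases and ubiquitin factors that act on Smoothened and Ci formed a list of 19 genes, of which 15 had a probe set and 14 were measured. Of the 14, 2 were at least 2-fold lower on the array labelled tdf, beside 6.19% of all measured genes. None was at least 2-fold higher, beside 3.6% of all measured genes. Gprk2, a kinase that phosphorylates active Smoothened, had 67.0 on the array labelled tdf, below the floor, and 202 on the yw array, and was at least 2.08-fold lower. The gene nej encodes the fly CBP, a histone acetyltransferase that works as a co-activator of Ci, and had 138 on the array labelled tdf and 283 on the yw array, 2.05-fold lower. The second probe set of nej stayed under the floor on both arrays. The ratio of nej is just past the 2-fold limit, and that of Gprk2 was -1.59 on the log2 scale with the floor at the 25th percentile, where both its signals were above the floor.

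The list as a whole had ratios below 0 for 13 of the 14 genes, against 47.6% of all measured genes, and a median log2 ratio of -0.23. The exception was slmb, an F-box protein that recognises phosphorylated Ci. It had 269 on the array labelled tdf and 175 on the yw array, 1.54-fold higher. The phosphatase subunit gene tws, which like slmb was named after its values were seen, had probe sets that disagreed. Its brighter probe set had 256 on the array labelled tdf and 310 on the yw array, a log2 ratio of -0.28. Its dimmer one had 162 on the array labelled tdf and 94.5, below the floor, on the yw array, a log2 ratio of at least 0.74. With each gene's probe sets averaged, 12 of the 14 ratios were below 0 and 2 above. Of the ratios below 0 in the main setting, only those of Gprk2, nej, SkpA and krz were larger in size than the SD of 0.53 between probe sets of a gene. The gene krz, at a log2 ratio of -0.64, was also named after its values were seen. The cullin ligase subunits were each within 2-fold. SkpA had 4127 on the array labelled tdf and 6470 on the yw array, a log2 ratio of -0.65. Cul1 had 3839 on the array labelled tdf and 4380 on the yw array, a log2 ratio of -0.19. Roc1a, the RING subunit that works with Cul1, had 4531 on the array labelled tdf and 5471 on the yw array, a log2 ratio of -0.27. Cul3, the partner of rdx, also named after its values were seen, had 674 on the array labelled tdf and 729 on the yw array, a log2 ratio of -0.11, so the higher signal of rdx stood beside a nearly equal signal of its cullin. The genes Pka-C1, sgg, mts and Uba1 of this list were not analysed here.

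Of 16 Hedgehog target genes and segment boundary partners, 12 had a probe set and 9 were measured. None was 2-fold apart, where 9.79% of all measured genes were. Of the 9 ratios 8 were above 0, against 52.4% of all measured genes, and the median log2 ratio was 0.34. These genes are also expressed in tissues where Hedgehog does not set their level, so they do not read the pathway alone. The homeobox genes en and inv, which mark the cells that make Hedgehog and were named after their values were seen, were close to each other in ratio. En had 195 on the array labelled tdf and 158 on the yw array, and inv had 199 on the array labelled tdf and 167 on the yw array.

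Of the other targets, the tendon cell gene sr had 928 on the array labelled tdf and 724 on the yw array, a log2 ratio of 0.36. The visceral mesoderm gene bap had 689 on the array labelled tdf and 486 on the yw array, a log2 ratio of 0.50. The gene kn, a Hedgehog target in the wing, had 363 on the array labelled tdf and 273 on the yw array, a log2 ratio of 0.41. Of the Iroquois genes, ara had 274 on the array labelled tdf and 187 on the yw array, a log2 ratio of 0.55. The neighbouring Iroquois gene caup had 116 on the array labelled tdf and 155 on the yw array, a log2 ratio of -0.42, the 1 ratio of the list below 0. The genes slp2, gsb and nkd were below the floor on both arrays, and wg, slp1, rho and Ser were not analysed here. Of the 9 ratios, that of ara alone was larger in size than the SD of 0.53 between probe sets of a gene, by a small margin.

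**Figure D3:**
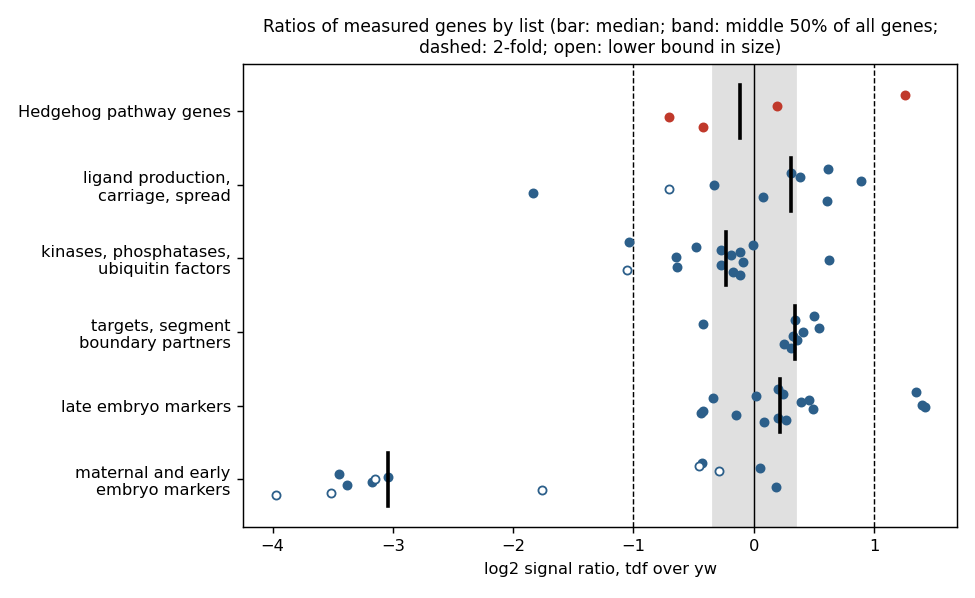
Log2 signal ratio, tdf over yw, of the measured genes of each list, with a bar at each list's median, a grey band for the middle 50% of all measured genes, dashed lines at 2-fold and open circles for ratios that are lower bounds in size. The 4 Hedgehog pathway genes spread from -0.70 to 1.26, the target list lies mostly to the right of 0, the kinase and ubiquitin list mostly to the left, and the maternal and early markers reach -3.97.

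The values of the 4 measured genes changed little with the processing. Over 7 alternatives of scaling, floor and probe sets, the log2 ratio of rdx ran from 1.23 to 1.37, that of ci from 0.16 to 0.27, that of smo from -0.46 to -0.33 and that of Su(fu) from -0.73 to -0.61. With the floor at the 25th percentile, a signal of 43.8, hh and disp came above the floor on 1 array each. The log2 ratio of hh was then at least 0.32 and that of disp -0.36 or lower, while ptc, ihog and cos stayed below that floor on both arrays. Those bounds lie within the spread of dim probe sets given above, so they give no direction for hh or disp.

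**Figure D4:**
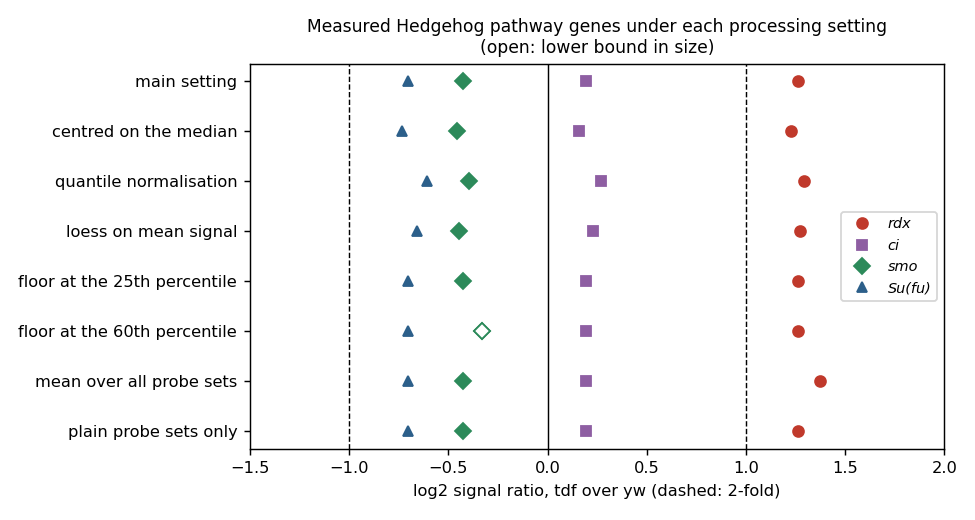
Log2 signal ratio, tdf over yw, of rdx, ci, smo and Su(fu) in the main setting and under 7 alternatives of scaling, floor and probe sets, with dashed lines at 2-fold and an open marker where a ratio is a lower bound in size. In each setting rdx lies above 2-fold, between 1.23 and 1.37, and the other 3 genes lie within 2-fold.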

How the data were processed

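The authors made the deposited intensities, 1 linear signal per probe set and array, with MAS5 (Affymetrix), per the submitters' processing notes. Its version and target signal are unknown here. The mean signal after leaving out 2% of probe sets at each end was 500.1 on both arrays, so each array was scaled as a whole. MAS5 subtracts mismatch signal, which leaves dim probe sets noisy.

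Of 13966 gene probe sets, 12442 named 1 gene in the platform annotation, and symbols were matched by gene ID to RefSeq (Release 6 plus ISO1 MT) for 12393 of them. A gene was read by its brightest such probe set. Before log2 ratios were taken, signals under the floor were set to the floor, so ratios with 1 side under it are lower bounds. No test was run, since each genotype has 1 array. The 2-fold limit was a rule of size. The members, lists and limits were chosen with earlier results of these data known. The genes named are all members, apt, and in each pathway list those at least 2-fold apart, the 3 largest ratios in size and the 3 brightest; others are marked. Having 1 array per genotype limits the precision. Alternatives were centring, quantile normalisation, loess (span 0.3), plain probe sets alone and averaging over a gene's probe sets. Others were a floor at percentile 25 or 60, and limits of 1.5-fold, 3-fold and 3 scaled local median absolute deviations. The steps were tested on simulated data. Effects were planted only in genes far brighter than the floor, with less noise than the SD of 0.53 between probe sets of a gene. That test therefore does not show how reliable dimmer signals are, such as those of smo, Su(fu) and ci. Python 3.11.15, numpy 2.4.6, pandas 2.3.3, statsmodels 0.14.6 and matplotlib 3.10.9 were used. No sequences were available here, so planned descriptions of proteins and promoters were not made. Gene coordinates served only to find the neighbours of each Hedgehog pathway gene.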

Additional observations from a re-analysis of the deposited data

Results flagged for a closer look

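The yeast control probe sets were used in no ratio. On the array labelled tdf WBP1 had a signal of 195, URA3 157 and RIP1 223, against 54.5, 59.1 and 64.2 on the yw array, so these 3 passed the floor, a signal of 97.3, in the mutant RNA only. They were noted because such controls should be dark on both arrays. The fourth yeast control, YEL018w, had 71.2 on the array labelled tdf and 5.37 on the yw array. It was thus under the floor on both, but also brighter on the array labelled tdf.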

How the results depend on the processing

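The median log2 ratio of the Hedgehog pathway genes ran from -0.15 to -0.06 over the 7 alternatives of scaling, floor and probe sets. The medians ran from 0.08 to 0.35 for ligand production and spread, from -0.28 to -0.19 for kinases and ubiquitin factors and from 0.30 to 0.36 for targets, and no median changed sign. With a limit of 1.5-fold, 13.2% of all measured genes were higher and 15.3% lower. Of the 4 measured Hedgehog pathway genes, 1 was then higher (rdx) and 1 lower (Su(fu)). Of the 9 measured genes of ligand production and spread, 3 were higher and 2 lower. Of the 14 measured kinase and ubiquitin genes, 1 was higher and 4 lower. At a limit of 3-fold, or 3 scaled local median absolute deviations, 0 Hedgehog pathway genes were higher and 0 kinase and ubiquitin genes lower. Of all measured genes 0.458% were at least 3-fold higher, 1.78% at least 3-fold lower and 2.16% beyond 3 such deviations in either direction. Of ligand production and spread, 1 gene (ttv) was lower at both limits and 0 were higher. The floor at the 60th percentile, a signal of 237, left 5 targets measured and 0 kinase and ubiquitin genes at least 2-fold lower, with nej at a log2 ratio of -0.26 or lower, by construction of the higher floor. With the floor at the 25th percentile, both signals of Gprk2 were above the floor and its log2 ratio was -1.59, in place of the bound of -1.05 or lower. With the mean over all probe sets, 1 kinase or ubiquitin gene was at least 2-fold lower, since the averaged signal of nej then fell short of the floor in the mutant RNA. No paired analysis was possible because each genotype has 1 array. Noise at dim signals limits hh, disp, ihog, ptc and cos, and single arrays limit every ratio.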

Other observations

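The nearest measured genes beside each Hedgehog pathway gene in the RefSeq gene order were looked up after the values of rdx were seen. Of 17 such neighbours of 9 genes, 1 was higher by 2-fold or more on the array labelled tdf, beside 3.6% of all measured genes, and 3 were lower by that size, beside 6.19%. The genes disp, ihog, ptc, smo, cos and Su(fu) were those with no neighbour 2-fold apart. Log2 ratios of their 12 neighbours ran from -0.70 (Fgop2 beside ihog) to 0.81 (NijC beside Su(fu)). The cytochrome P450 gene Cyp6d5, next to rdx on one side, had 2181 on the array labelled tdf and 1088 on the yw array and was itself at least 2-fold higher. On the other side, the nearest measured gene, Kots, had 96.9 on the array labelled tdf, just below the floor, and 214 on the yw array, a log2 ratio of -1.14 or lower. Beside hh, CG31365 had 141 on the array labelled tdf and 323 on the yw array, a log2 ratio of -1.19, and Irk1 on the other side had 76.5 and 106. Beside ci, Ank had 1173 on the array labelled tdf and 2700 on the yw array, a log2 ratio of -1.20, while ci itself was at 0.19. Whether the stocks differ in these regions was not tested.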
